A study of Mus musculus with 24 samples.

Results

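The 10 genes described here belong to the amino acid branch of the ATF4 stress response and to serine synthesis: Atf4, Ddit3, Trib3, Chac1, Asns, Phgdh, Psat1, Psph, Shmt2 and Mthfd2. They were chosen by name, as every probe of the arrays whose gene name is one of the 10. The rule itself uses no measured value, but the 10 names were set with earlier results of these data known. All 10 passed the filter on dim probes and stand among 16643 genes tested, and all 14 of their probes were kept. Phgdh had 3 probes, Trib3 and Psph 2 each, and the other genes 1 each. A gene was read by its brightest kept probe.

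The study asked what loss of Trim28, a co-repressor that silences chromatin, does to T cells. It used female C57BL/6 mice of 6 or 7 weeks, either Trim28 conditional knockouts (CKO) with deletion in T cells or wild-type (WT) mice, and 24 single-colour Agilent arrays in 6 groups of 4. Naive CD4+ T cells (CD4+CD62+CD25- in the design text) were taken unstimulated or after 13 h on plates coated with antibodies to CD3 and CD28, which engage the T cell receptor (TCR) and its co-receptor, and regulatory T cells (Treg, CD4+CD62+CD25+) were profiled from both genotypes. The groups were thus CKO naive stimulated, WT naive stimulated, CKO Treg, WT Treg, CKO naive unstimulated and WT naive unstimulated. The sources used here name neither the Cre line nor the number of animals behind an array, so p-values measure only the spread between these samples, which may be technical.

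ATF4 is a transcription factor whose protein is made in larger amounts when eIF2 alpha is phosphorylated, the event shared by the kinases that sense amino acid shortage, haem shortage, double-stranded RNA and misfolded protein in the endoplasmic reticulum. ATF4 protein is set largely by translation, which an mRNA array does not measure. Its targets include genes for amino acid uptake and synthesis, and the serine pathway is one of them: PHGDH, PSAT1 and PSPH turn a glycolytic intermediate into serine, SHMT2 passes a carbon unit of serine to folate in mitochondria, and MTHFD2 carries that unit onward towards formate for nucleotide synthesis. T cells that enter division after TCR stimulation are known to raise this pathway.

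Promoter windows of all 10 genes were found in RefSeq (GRCm38.p6), from 250 bases before to 50 bases after the annotated start, with 2 windows for Psat1. The core of the C/EBP-ATF response element, the site bound by ATF4 together with C/EBP proteins, was searched on both strands as TGATGNAA. It was found in 3 of the 11 windows, those of Asns, Chac1 and Trib3, and in 3.97% of all 32851 windows of the same length. The 3 windows with a match are printed first, since they are the only ones of the set that hold these letters, and those of Phgdh and Psat1 follow because their genes were lower in stimulated CKO cells. Capitals mark the match. They lie at chr6:7693160-7693459, minus strand (Asns), chr2:119350992-119351291, plus strand (Chac1), chr2:152344011-152344310, minus strand (Trib3), chr3:98339920-98340219, minus strand (Phgdh) and chr19:15925010-15925309, minus strand (the first Psat1 window).
Asns: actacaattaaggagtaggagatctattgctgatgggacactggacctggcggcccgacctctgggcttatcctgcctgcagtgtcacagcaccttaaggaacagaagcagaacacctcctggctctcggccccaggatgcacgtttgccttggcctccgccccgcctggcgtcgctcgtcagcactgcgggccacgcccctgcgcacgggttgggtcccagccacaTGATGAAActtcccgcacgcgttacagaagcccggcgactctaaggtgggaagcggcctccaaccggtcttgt
Chac1: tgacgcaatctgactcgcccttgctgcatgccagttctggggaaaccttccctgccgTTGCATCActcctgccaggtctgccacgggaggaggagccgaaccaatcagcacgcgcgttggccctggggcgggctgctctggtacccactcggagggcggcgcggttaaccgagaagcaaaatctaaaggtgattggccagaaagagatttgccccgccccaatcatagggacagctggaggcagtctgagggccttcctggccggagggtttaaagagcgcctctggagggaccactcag
Trib3: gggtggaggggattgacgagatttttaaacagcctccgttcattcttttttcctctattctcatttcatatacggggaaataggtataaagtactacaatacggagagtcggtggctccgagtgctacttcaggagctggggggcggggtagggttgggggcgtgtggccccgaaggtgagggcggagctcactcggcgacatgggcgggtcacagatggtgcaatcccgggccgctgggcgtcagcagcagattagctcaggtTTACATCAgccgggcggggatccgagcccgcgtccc
Phgdh: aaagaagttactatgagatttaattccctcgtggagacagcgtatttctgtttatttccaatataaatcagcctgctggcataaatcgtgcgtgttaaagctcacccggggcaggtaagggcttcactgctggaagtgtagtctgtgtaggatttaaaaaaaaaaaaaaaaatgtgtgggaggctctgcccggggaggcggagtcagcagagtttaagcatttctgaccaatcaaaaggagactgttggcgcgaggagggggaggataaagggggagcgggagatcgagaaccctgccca
Psat1: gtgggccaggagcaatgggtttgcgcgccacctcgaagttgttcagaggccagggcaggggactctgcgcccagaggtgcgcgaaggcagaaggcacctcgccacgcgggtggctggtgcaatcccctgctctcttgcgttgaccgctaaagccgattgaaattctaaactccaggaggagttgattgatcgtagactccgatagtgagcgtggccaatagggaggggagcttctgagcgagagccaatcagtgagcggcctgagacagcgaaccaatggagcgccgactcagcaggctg
The Asns match read TGATGAAA on the strand of the gene, 23 bases upstream of the start. The Chac1 match read TGATGCAA on the opposite strand, 193 bases upstream, and the Trib3 match read TGATGTAA on the opposite strand, 14 bases downstream. A match is a description of the sequence and not a measured site, and the absence of a match says only that these letters are not in the window.

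Levels are given as log2 of the processed signal relative to the 75th percentile of the array's signals, so that 0 is the 75th percentile, and each mean stands with its SD over 4 arrays. Differences are in log2 units from 1 limma model over the 24 arrays with their standard error, and p-values are adjusted by Benjamini-Hochberg over the 16643 genes. A gene is called where the adjusted p is under 0.05. The 75th percentile signal was 160 to 382 on naive cell arrays, but 32.5 to 119 on CKO Treg arrays and 55.6 to 208 on WT Treg arrays, and 43.0% to 61.2% of probes per array were well above background. Arrays of 1 group correlated at 0.961 to 0.993 over genes. Trim28 averaged 0.93 ± 0.31 in CKO stimulated cells and 3.61 ± 0.21 in WT stimulated cells, and was also lower in CKO unstimulated cells (0.89 ± 0.29, against 2.41 ± 0.10 in WT) and in CKO Treg (0.39 ± 0.24, against 1.95 ± 0.19 in WT Treg). Foxp3, the defining Treg factor, averaged 3.30 ± 0.18 in CKO Treg and 3.20 ± 0.18 in WT Treg, far above all naive groups.

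One label goes against the design text. The treatment field of the CKO Treg samples says TCR-stimulated and that of the WT Treg samples says unstimulated, whereas the design text describes stimulation of naive cells only. Irf4, which TCR signalling raises, averaged 0.27 ± 0.24 in CKO Treg and 0.78 ± 0.37 in WT Treg, against 4.40 ± 0.21 in CKO stimulated naive cells. Tfrc, the transferrin receptor of dividing cells, averaged -1.05 ± 0.24 in CKO Treg and 0.57 ± 0.46 in CKO stimulated naive cells. Cd69, an early activation marker, was lower in stimulated than in unstimulated naive cells of both genotypes (3.72 ± 0.14 against 4.35 ± 0.22 in CKO cells, and 3.77 ± 0.24 against 4.53 ± 0.20 in WT cells). Treg comparisons are given with this conflict in view.

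Transcripts of other cell types were present. The summed signal of 10 B cell markers, as log2, ran from 0.76 to 2.78 on CKO stimulated arrays and from -0.93 to 1.60 on WT stimulated arrays, and from 4.10 to 5.90 on CKO unstimulated arrays and 2.82 to 4.75 on WT unstimulated arrays. In Treg it ran from 2.15 to 3.66 on CKO arrays and from 1.97 to 3.24 on WT arrays. On 3 or more arrays of either unstimulated group all 10 markers were above background, as were 8 in CKO stimulated cells, 6 in WT stimulated cells and 6 in either Treg group. Of the 10, 3 were called higher in CKO stimulated cells, 1 in CKO unstimulated cells and 0 in CKO Treg, beside 11.7%, 7.82% and 2.56% of all genes. Their median CKO minus WT difference in these states was 1.49, 1.17 and 0.17, beside -0.05, 0.01 and 0.01 over all genes. The medians were 0.90, 0.50 and 0.06 for 8 measured myeloid and dendritic markers, of which none was called in any of these states. For 9 measured CD8 and NK markers they were 0.44, 0.56 and 0.45. Of these 9, 2, 2 and 1 were called higher and 1, 0 and 1 lower, where 12.4%, 11.0% and 1.81% of all genes were lower. The marker called lower was Eomes, by -2.91 ± 0.61 in stimulated cells. Foxp3 was also higher in CKO than in WT naive cells (-1.35 ± 0.25 against -3.80 ± 0.32 when stimulated, and -1.87 ± 0.39 against -2.83 ± 0.33 when unstimulated). The part of these transcripts in the results below was not tested. In bulk RNA, fewer cells of a type and less RNA per cell cannot be told apart.

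The level of each gene on every array shows where the 6 groups separate. Phgdh, Psat1, Psph, Shmt2 and Asns share 1 order at the top: WT stimulated cells, then CKO stimulated cells, then the other 4 groups, with no overlap between the arrays of the first group and the second, nor between the second and the third. Atf4 had the same 2 leading groups without overlap between them, but CKO stimulated arrays overlapped WT unstimulated arrays. Chac1 and Mthfd2 were also highest in the stimulated groups, with the genotypes overlapping. Ddit3 and Trib3 ran differently: Ddit3 averaged most in WT unstimulated cells and least in WT stimulated cells, and Trib3 averaged most in WT unstimulated cells and least in CKO Treg, and neighbours in either order overlapped at every step.

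**Figure D1:**
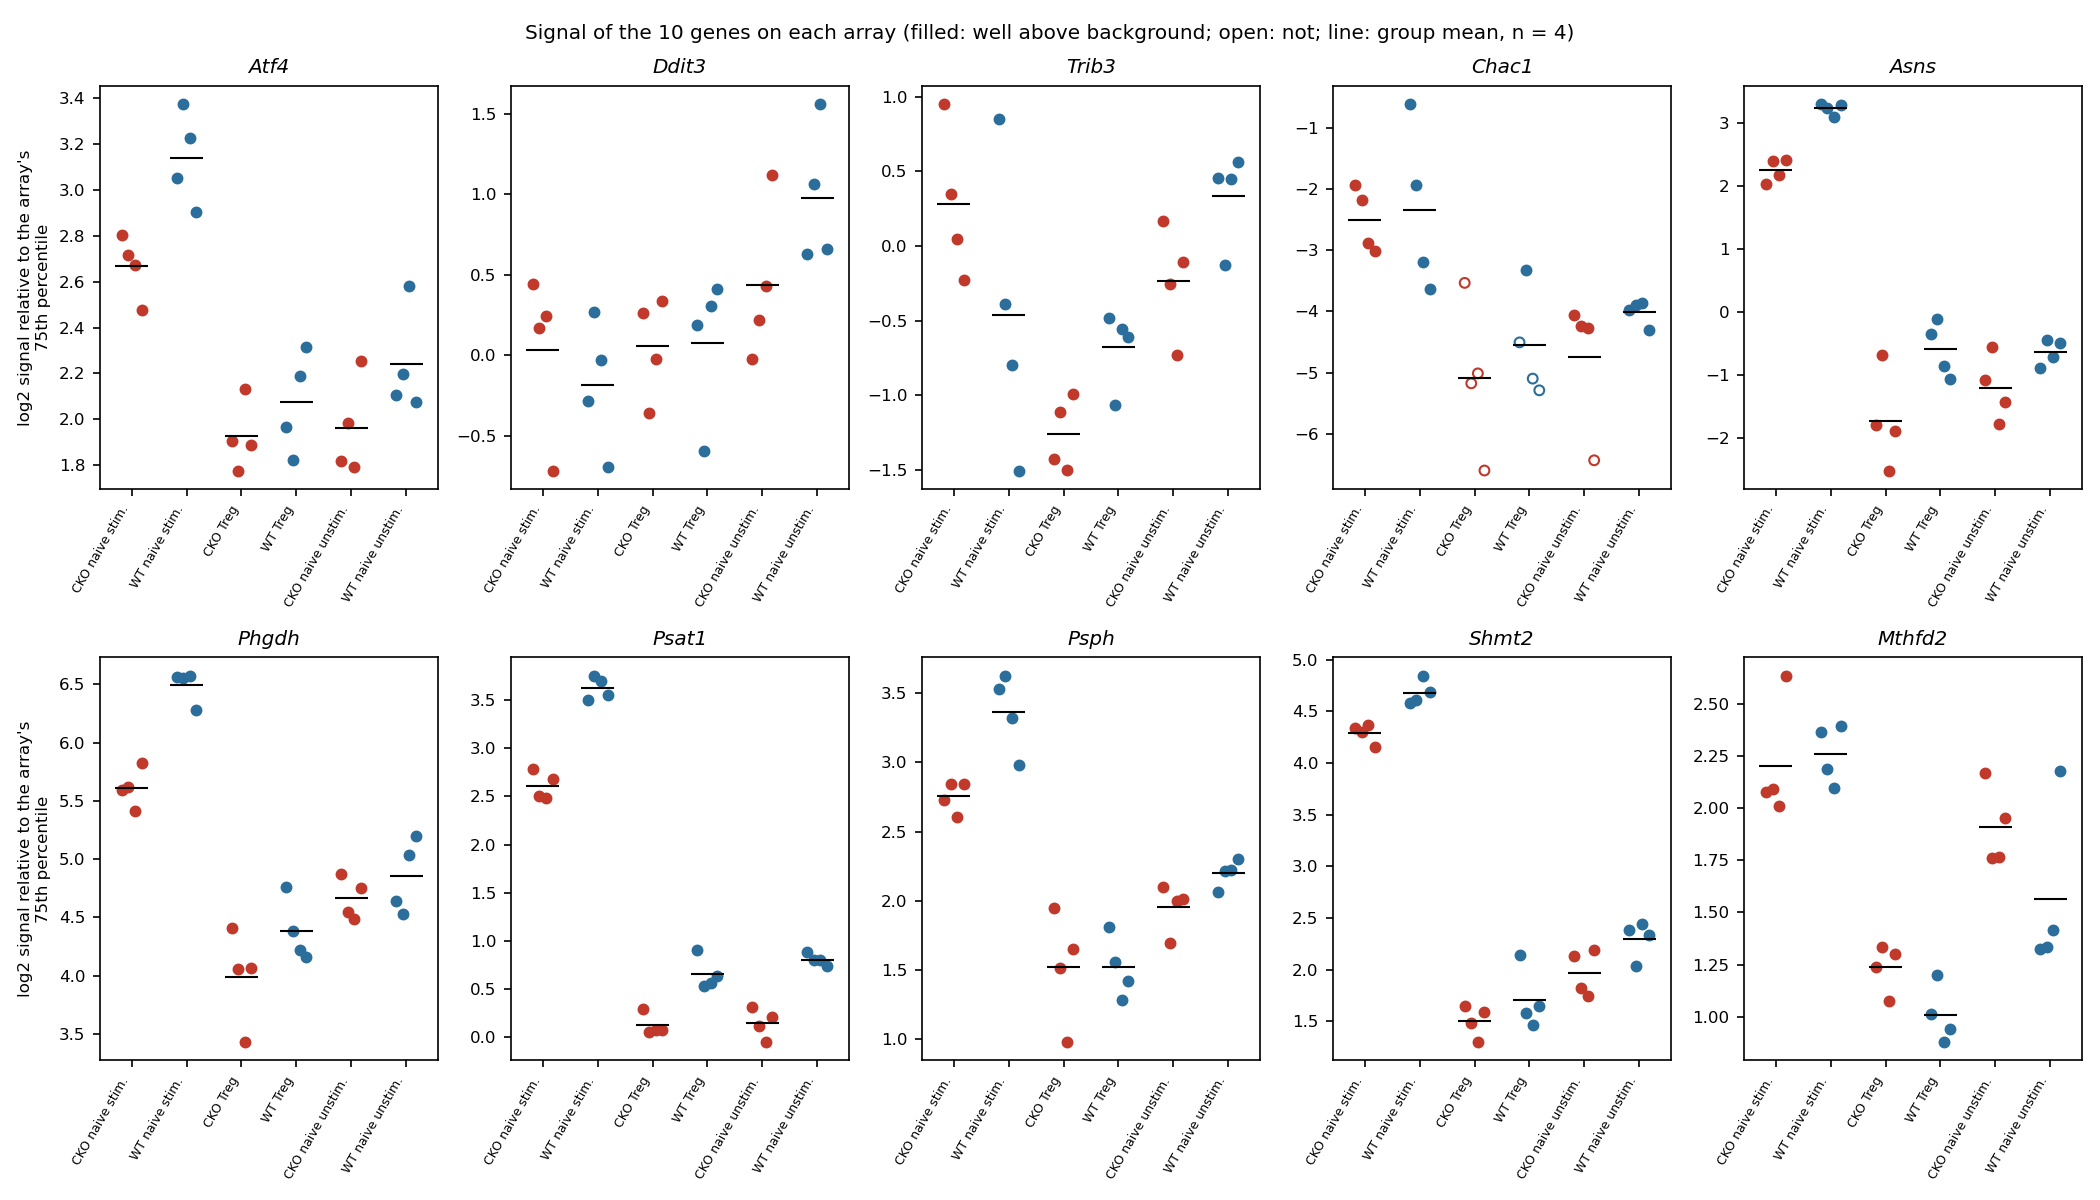
Log2 signal of the 10 genes relative to each array's 75th percentile (vertical axis, 1 scale per panel) on all 24 arrays, in 6 groups of 4 with CKO in red and WT in blue; open circles are not well above background and lines are group means. For Psat1 the CKO arrays lie below the WT arrays in each of the 3 cell states, while for Mthfd2 they overlap in each.

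In stimulated naive cells 5 of the 10 genes were lower in CKO than in WT cells, among them all 3 enzymes of serine synthesis: Psat1, Phgdh, Psph, Asns and Atf4. The other 5, Shmt2, Mthfd2, Ddit3, Trib3 and Chac1, did not pass the test, and none was called higher. Of all genes tested, 12.4% were called lower and 11.7% higher in this comparison, and under quantile normalization 930 were lower and 1457 higher. The median difference of the 10 was -0.43, beside -0.05 over all genes.

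Psat1, the transaminase of the pathway's second step, stood at 2.79, 2.50, 2.48 and 2.68 on the CKO stimulated arrays and at 3.50, 3.76, 3.71 and 3.55 on the WT stimulated arrays. Every WT array lay above every CKO array. The difference was -1.02 ± 0.11, a 2.02-fold lower signal (limma, adjusted p = 2.6e-06).
Phgdh, the dehydrogenase that opens the pathway and the brightest gene of the set, stood at 5.59, 5.62, 5.41 and 5.82 on CKO arrays and at 6.56, 6.55, 6.57 and 6.28 on WT arrays. The groups did not overlap, and the signal was 1.84-fold lower in CKO cells (-0.88 ± 0.19, limma, adjusted p = 0.0025). Its other 2 probes differed in the same direction, by -0.92 and -1.13.
Psph, the phosphatase that releases serine, stood at 2.73, 2.84, 2.60 and 2.84 on CKO arrays and at 3.53, 3.63, 3.32 and 2.98 on WT arrays. The arrays of the genotypes did not overlap, though the fourth WT array lay nearest to the CKO range, and the difference was -0.61 ± 0.17 (limma, adjusted p = 0.016). The second Psph probe also gave -0.61.

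Asns, which makes asparagine and is a much-used readout of ATF4 activity, stood at 2.03, 2.40, 2.18 and 2.42 on CKO arrays and at 3.31, 3.25, 3.10 and 3.30 on WT arrays. No CKO array reached the WT range, and the signal was 1.98-fold lower (-0.98 ± 0.30, limma, adjusted p = 0.022). Atf4 itself stood at 2.80, 2.72, 2.67 and 2.48 on CKO arrays and at 3.05, 3.37, 3.23 and 2.91 on WT arrays, with no overlap and a difference of -0.47 ± 0.15 (limma, adjusted p = 0.025). Shmt2, the mitochondrial serine hydroxymethyltransferase, stood at 4.34, 4.30, 4.37 and 4.15 on CKO arrays and at 4.58, 4.61, 4.84 and 4.69 on WT arrays. These ranges did not overlap either, and at -0.39 ± 0.14 its adjusted p of 0.051 missed the threshold in limma.

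The genes that did not pass were not one pattern. Mthfd2, the next mitochondrial folate enzyme, differed by -0.06 with a 95% interval of -0.42 to 0.30. Ddit3, which encodes the pro-apoptotic factor CHOP, differed by 0.22 (-0.41 to 0.84), and Chac1, which breaks down glutathione, by -0.16 (-1.52 to 1.20), an interval too wide to set a direction. Trib3, a pseudokinase that ATF4 and CHOP induce and that feeds back on them, stood at 0.95, 0.35, 0.05 and -0.23 on CKO arrays and at 0.85, -0.39, -0.80 and -1.50 on WT arrays. The first WT array was the highest of the 4 and lay inside the CKO range, and the difference of 0.74 ± 0.35 was not called (limma, adjusted p = 0.12). Without that array it was called, with an adjusted p of 0.0080. The second, dimmer Trib3 probe gave 0.29.

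Each stimulated CKO array shared its slide with the WT array of the same number, and on all 4 slides Psat1 (-1.25 to -0.71), Phgdh (-1.16 to -0.46), Psph (-0.80 to -0.14), Asns (-1.27 to -0.86), Atf4 (-0.66 to -0.25) and Shmt2 (-0.53 to -0.24) were lower in the CKO array, while Trib3 was higher (0.10 to 1.27). With slide as a block these 6 genes were called lower, Shmt2 with an adjusted p of 0.040, and Trib3 was called higher at 0.043. The calls of Asns, Psph and Atf4 were lost with quantile normalization and with the authors' own normalized values (adjusted p 0.11, 0.075 and 0.25 with quantile normalization), and also when CKO stimulated replicate 3 or WT stimulated replicate 2 was left out, which leaves Psat1 and Phgdh. Quantile normalization and the authors' values gave the same differences to 2 decimals (-0.78 for Asns, -0.41 for Psph and -0.28 for Atf4). They are thus not 2 separate checks. Atf4 was also lost with normexp background correction (0.11), with no filter on dim probes (0.066), in a fit of the compared arrays alone (0.052) and without CKO stimulated replicate 4 (0.057) and WT stimulated replicate 3 (0.062), and Asns without CKO stimulated replicate 1 (0.056).

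**Figure D2:**
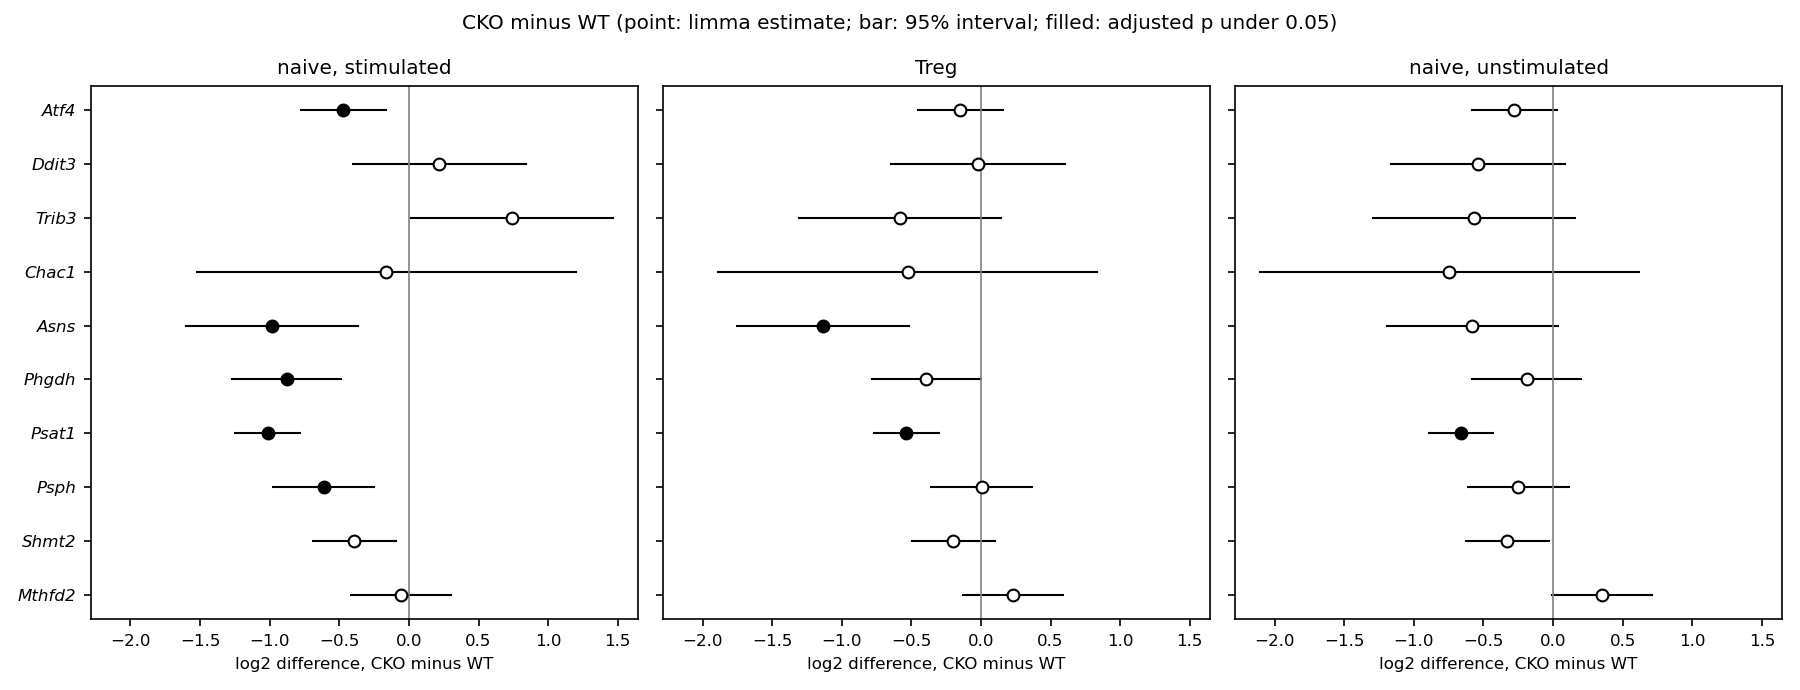
CKO minus WT log2 difference (horizontal axis) of the 10 genes in stimulated naive cells, Treg and unstimulated naive cells, as limma estimates with 95% intervals from 4 arrays a group; filled points have an adjusted p under 0.05. Psat1 is called lower in all 3 states, and 5 genes are filled in the stimulated panel, 2 in the Treg panel and 1 in the unstimulated panel; the Chac1 point in Treg rests on arrays mostly not well above background.

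In unstimulated naive cells Psat1 alone was called, 1 of 10 genes lower and 0 higher, while 11.0% of all genes were called lower and 7.82% higher. It stood at 0.31, 0.11, -0.06 and 0.21 on CKO arrays and at 0.88, 0.80, 0.79 and 0.74 on WT arrays. Every CKO array lay below every WT array, and the signal was 1.58-fold lower (-0.66 ± 0.11, limma, adjusted p = 0.00056). Its difference on the 4 slides ran from -0.85 to -0.53, and with slide as a block its adjusted p was 0.0012. With normexp background correction the adjusted p was 0.078.

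Of the other 9 genes, 8 lay below 0 and none was called. Asns differed by -0.58 ± 0.30 (limma, adjusted p = 0.17), Shmt2 by -0.33 ± 0.14 (0.11), Ddit3 by -0.54 ± 0.30 (0.21), Trib3 by -0.57 ± 0.35 (0.26), Atf4 by -0.28 ± 0.15 (0.19), Psph by -0.25 ± 0.17 (0.32) and Phgdh by -0.19 ± 0.19 (0.50). The probes of Phgdh disagreed here, with -0.24 for the second and -1.04 for the third. Mthfd2 lay on the other side, at 2.17, 1.76, 1.77 and 1.95 on CKO arrays against 1.33, 1.34, 1.42 and 2.18 on WT arrays. The fourth WT array was higher than every other array of both groups, and the difference of 0.35 ± 0.17 was not called (limma, adjusted p = 0.16). Without that array Mthfd2 was called higher in CKO cells, with an adjusted p of 0.0086, so that 2 genes passed. Chac1 was near the lower end of the measured signals, at -4.75 ± 1.12 in CKO cells and -4.01 ± 0.20 in WT cells, and 3 of 4 CKO arrays were well above background.

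In Treg 2 of the 10 genes were called lower in CKO, Psat1 and Asns, and none higher, while 1.81% of all genes were called lower and 2.56% higher (534 lower and 492 higher with the authors' normalized values). Psat1 stood at 0.28, 0.04, 0.07 and 0.07 on CKO Treg arrays and at 0.90, 0.52, 0.55 and 0.63 on WT Treg arrays. The ranges did not overlap, and the signal was 1.45-fold lower (-0.54 ± 0.11, limma, adjusted p = 0.0050). Asns stood at -1.80, -0.69, -2.52 and -1.89 on CKO Treg arrays and at -0.34, -0.11, -0.85 and -1.06 on WT Treg arrays. The second CKO array lay among the WT arrays, and the difference was -1.13 ± 0.30 (limma, adjusted p = 0.028).

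On the 4 slides that held both genotypes, Psat1 was lower in CKO Treg by -0.62 to -0.48 and Asns by -1.67 to -0.57, and with slide as a block both were called (adjusted p 0.0075 and 0.0045). The Asns call was lost without CKO Treg replicate 1 (adjusted p 0.068), 3 (0.12) or 4 (0.073) and without WT Treg replicate 1 (0.091) or 2 (0.11). In a fit of the 8 Treg arrays alone neither gene was called (0.12 for Psat1 and 0.26 for Asns), and likewise with normexp. Phgdh, at -0.39 with a 95% interval of -0.78 to -0.0021, was the nearest of the others and was not called (limma, adjusted p = 0.35). Psph was at 0.0045 (-0.36 to 0.37), Atf4 at -0.15 (-0.45 to 0.16), Shmt2 at -0.20 (-0.50 to 0.10), Ddit3 at -0.02 (-0.65 to 0.60), Trib3 at -0.58 (-1.31 to 0.15; 0.0092 for its second probe) and Mthfd2 at 0.23 (-0.13 to 0.59). Chac1 was well above background on 0 CKO Treg arrays and 1 WT Treg array, so no fold is given.

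**Figure D3:**
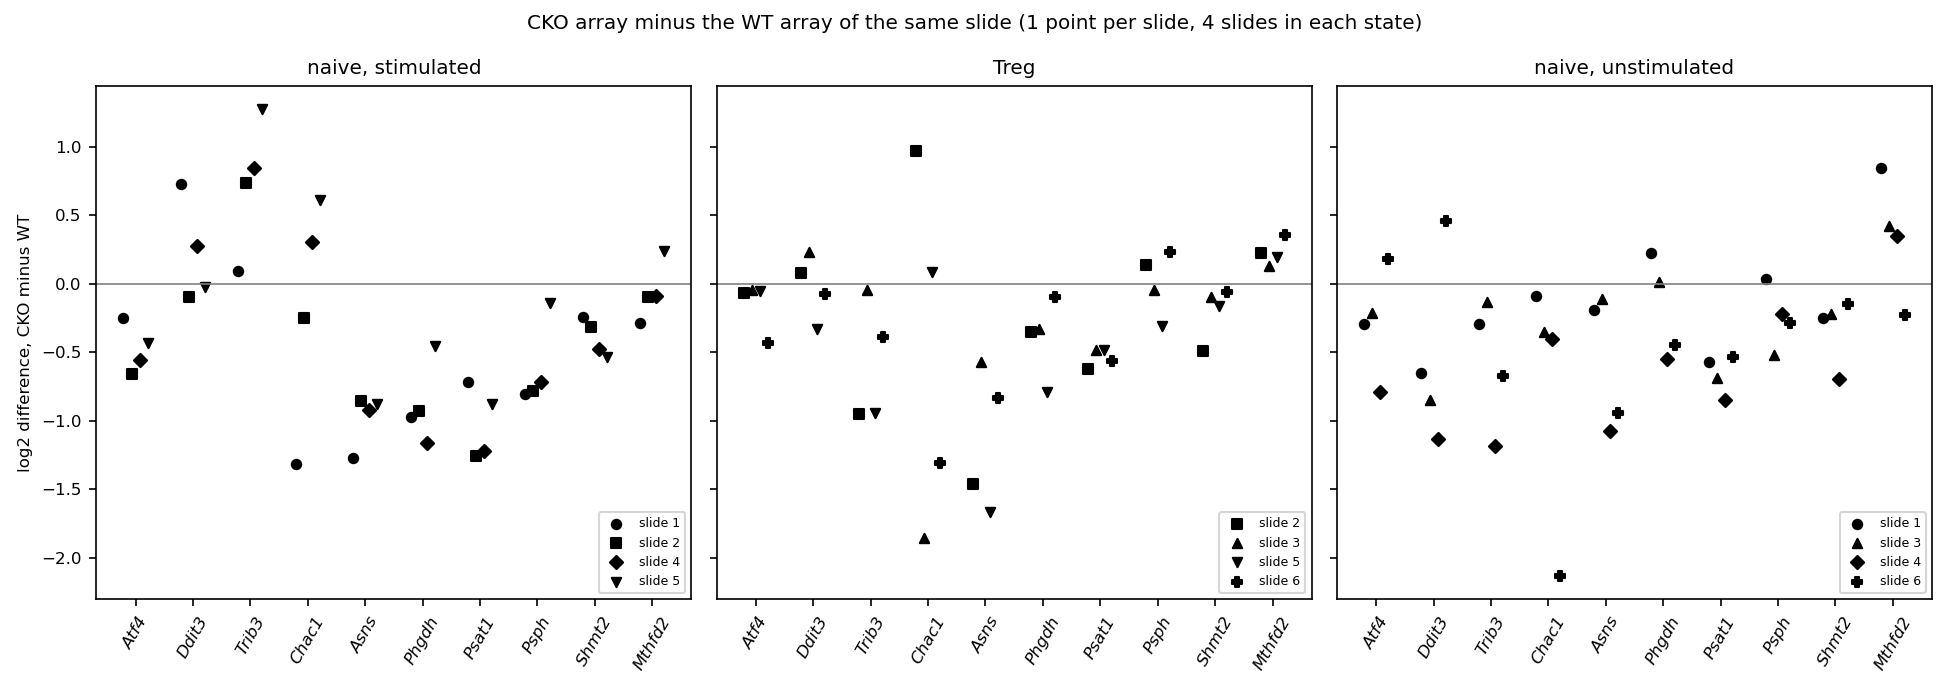
Difference between the CKO array and the WT array of the same slide (vertical axis, log2) for each gene and cell state, 1 point per slide and 4 slides per state. Psat1, Asns and Shmt2 lie below 0 on every slide in the 3 states, and Trib3 lies above 0 on all 4 slides of stimulated cells and below 0 on all 8 others.

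Stimulation raised most of the set in both genotypes. In CKO naive cells 7 of 10 genes were called higher after 13 h and 0 lower, while 29.9% of all genes were called higher and 30.3% lower. In WT naive cells 8 were called higher and 1 lower, while 31.7% of all genes were called higher and 30.2% lower. The median change of the 10 was 0.87 in CKO cells and 1.40 in WT cells, beside -0.08 and -0.03 over all genes.

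Asns changed most, by 3.47 ± 0.30 (11.1-fold) in CKO cells and 3.87 ± 0.30 (14.7-fold) in WT cells. In CKO cells it stood at 2.03 to 2.42 when stimulated and at -1.79 to -0.56 when unstimulated, and in WT cells at 3.10 to 3.31 when stimulated and at -0.89 to -0.45 when unstimulated. Psat1 rose 5.54-fold in CKO cells (2.47 ± 0.11) and 7.09-fold in WT cells (2.83 ± 0.11). Shmt2 rose by 2.32 ± 0.14 in CKO cells and 2.38 ± 0.14 in WT cells, the closest pair of values in the set, and its adjusted p in limma was at most 2.4e-11. None of these 3 genes had an unstimulated array inside the range of the stimulated ones.

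Phgdh rose by 0.95 ± 0.19 in CKO cells and 1.64 ± 0.19 in WT cells, Psph by 0.80 ± 0.17 and 1.16 ± 0.17, and Atf4 by 0.71 ± 0.15 and 0.90 ± 0.15 (largest adjusted p of the 6 values 0.00046, limma). The second Phgdh probe rose by 1.02 in CKO cells and 1.69 in WT cells, but the third by 1.77 and 1.86. With normexp the Atf4 call in CKO cells was lost (0.061). Chac1 rose by 2.25 ± 0.65 in CKO cells (limma, adjusted p = 0.0054) and by 1.66 ± 0.65 in WT cells (0.032). Its WT stimulated arrays stood at -0.62, -1.94, -3.19 and -3.63, with an SD of 1.35, the largest of the 10 genes in any group. The WT call of Chac1 was lost without WT unstimulated replicate 1 (0.053) or 4 (0.068) or WT stimulated replicate 1 (0.15) or 2 (0.075). Both Chac1 calls were lost with normexp (0.28 in CKO cells and 0.30 in WT cells) and with a floor set under the dimmest signals (0.43 and 0.056). Mthfd2 rose in WT cells by 0.70 ± 0.17 (limma, adjusted p = 0.0014), where the fourth unstimulated array overlapped the stimulated range, and in CKO cells its change of 0.29 ± 0.17 was not called (0.15).

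Ddit3 went the other way. In WT cells it fell to -0.29, 0.27, -0.03 and -0.69 after stimulation, against 0.63, 1.06, 1.56 and 0.66 in unstimulated cells, with no overlap and a change of -1.16 ± 0.30 (limma, adjusted p = 0.0020). In CKO cells the change of -0.40 ± 0.30 was not called (0.26). Trib3 differed by 0.51 ± 0.35 in CKO cells (0.21) and by -0.80 ± 0.35 in WT cells (0.053), and neither was called. With slide as a block the WT value of Trib3 was -0.67 with an adjusted p of 0.045, and without WT stimulated replicate 1, the highest of its 4 arrays, its adjusted p was 0.00085. In each genotype 2 slides held both states. There Asns was higher by 3.11 and 3.97 in CKO cells and by 3.82 and 4.19 in WT cells, Psat1 by 2.48 and 2.54 in CKO cells and by 2.62 and 2.91 in WT cells, and with slide as a block the same genes were called plus Trib3 in WT cells.

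**Figure D4:**
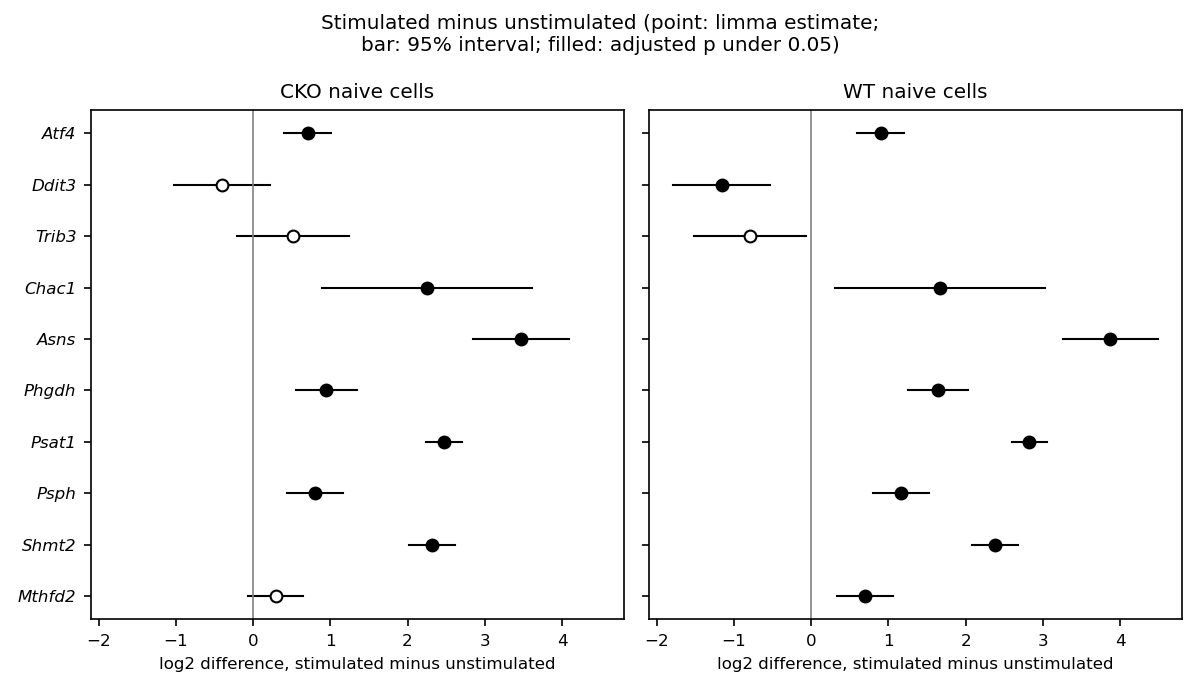
Stimulated minus unstimulated log2 difference (horizontal axis) of the 10 genes in CKO and in WT naive cells, as limma estimates with 95% intervals from 4 arrays a group; filled points have an adjusted p under 0.05. Asns, Psat1, Shmt2, Chac1, Phgdh, Psph and Atf4 lie right of 0 in both panels, and Ddit3 lies left of 0 and is called in WT cells only.

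Of all genes, 30.3% were called lower with stimulation in CKO cells and 30.2% in WT cells. Markers of other cells were lower in stimulated than in unstimulated cells of both genotypes, with 9 of 10 B cell markers called lower in CKO cells and 10 of 10 in WT cells, and 6 and 7 of 8 measured myeloid and dendritic markers. Their part in the changes above was not tested.

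Whether stimulation acted differently in the 2 genotypes was tested by the interaction, the CKO change minus the WT change. No member was called by limma (0 of 10, with 3 at an unadjusted p under 0.05: Trib3, Phgdh and Psat1), while 2.11% of all genes were called above 0 and 1.30% below. Trib3 gave 1.31 (95% interval 0.28 to 2.34, adjusted p = 0.18), Phgdh -0.69 (-1.24 to -0.14, 0.19) and Psat1 -0.36 (-0.68 to -0.03, 0.28). The probes of Phgdh disagreed, with -0.67 for the second and -0.09 for the third, and the second Trib3 probe gave 0.87. Shmt2 gave -0.06 (-0.48 to 0.36) and Asns -0.40 (-1.27 to 0.47). Trib3 was called without WT stimulated replicate 1 (adjusted p = 0.016), and with array weights Trib3, Phgdh, Ddit3 and Mthfd2 were called. In the fit without weights, the CKO minus WT differences of Phgdh and Psph in stimulated cells were thus not shown to differ from those in unstimulated cells.

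Treg were compared with unstimulated naive cells of the same genotype. In CKO cells 4 of 10 genes were lower in Treg and 0 higher, while 16.4% of all genes were called lower and 11.8% higher. In WT cells 6 were lower and 0 higher, while 29.6% of all genes were called lower and 19.0% higher. Mthfd2 was lower by -0.68 ± 0.17 in CKO Treg and -0.56 ± 0.17 in WT Treg, Shmt2 by -0.47 ± 0.14 and -0.59 ± 0.14, Phgdh by -0.67 ± 0.19 and -0.47 ± 0.19, and Trib3 by -1.03 ± 0.35 and -1.01 ± 0.35. Psph (-0.68 ± 0.17) and Ddit3 (-0.90 ± 0.30) were called in WT Treg, where the CKO values were -0.43 ± 0.17 and -0.38 ± 0.30 and not called. The dimmer second Trib3 probe gave 0.22 in CKO cells and -0.36 in WT cells, against -1.03 and -1.01 for the probe used, and with the mean of both probes Trib3 was not called (adjusted p 0.44 in CKO cells and 0.12 in WT cells). The Trib3 call in CKO cells was also lost without CKO unstimulated replicate 1, 2 or 4 or CKO Treg replicate 1 or 3 (adjusted p at most 0.10). The Shmt2 call in CKO cells was lost with quantile normalization (0.062), with the authors' values (0.062) and in a fit of the compared arrays alone (0.051). It was also lost without CKO unstimulated replicate 1 (0.067) or 4 (0.071) or CKO Treg replicate 3 (0.072). The Mthfd2 call in WT cells was lost in a fit of the compared arrays alone (0.072). The Ddit3 call in WT cells was lost without WT unstimulated replicate 3 (0.073) or WT Treg replicate 2 (0.077).

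Psat1 did not follow, at -0.02 (95% interval -0.26 to 0.21) in CKO cells and -0.15 (-0.38 to 0.08) in WT cells, nor did Atf4, at -0.04 (-0.34 to 0.27) and -0.17 (-0.47 to 0.14). Of all genes, 16.4% were called lower in Treg in CKO cells and 29.6% in WT cells. Markers of some other cells were also lower in Treg. Of 10 B cell markers, 10 were called lower in CKO cells and 6 in WT cells (medians -2.65 and -1.64). For 9 measured CD8 and NK markers the counts were 7 and 6, with 1 called higher in WT cells. Of 8 measured myeloid and dendritic markers, 1 was called lower in CKO cells and 0 in WT cells. Stromal and epithelial markers went the other way, with 1 and 2 of 3 measured called higher. None of 3 measured erythroid and platelet markers was called. The part of other cells in the Treg differences was not tested. The count in CKO cells fell to 1, Mthfd2, without CKO Treg replicate 3, and to 2, Mthfd2 and Phgdh, without CKO unstimulated replicate 1 or 4. The count in WT cells fell to 3 without WT Treg replicate 2. Phgdh in WT Treg was lost in 13 of the 38 alternatives, with an adjusted p of 0.73 with quantile normalization. On the 2 slides that held both cell types, Mthfd2 was lower in Treg by -0.65 and -0.43 in CKO cells and by -1.24 and -0.13 in WT cells, and Trib3 by -0.88 and -0.86 and by -1.17 and -0.94. With slide as a block Psph joined the CKO calls (adjusted p 0.046) and Phgdh left the WT calls (0.052). The test of genotype by cell type called 0 of 10 genes in limma, with 0 at an unadjusted p under 0.05, while 0.246% of all genes were called above 0 and 0.150% below.

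Other genes of the pathways were read from lists of known function. Of 27 measured genes of 30 listed as other ATF4 targets and partners, 17 rose and 4 fell with stimulation in CKO cells, and 20 rose and 5 fell in WT cells, with a median change of 1.05 and 1.09. Over all genes the shares were 29.9% higher and 30.3% lower in CKO cells, and 31.7% higher and 30.2% lower in WT cells. Bcat1, which starts the breakdown of branched-chain amino acids, rose by 8.55 ± 0.22 in CKO cells, where 2 unstimulated arrays measured it well above background, and by 8.66 ± 0.22 in WT cells. Slc1a5, a glutamine transporter, rose by 2.61 ± 0.15 in CKO cells and 1.73 ± 0.15 in WT cells. Xpot, which exports tRNA from the nucleus, rose by 1.95 ± 0.12 in CKO cells and 2.31 ± 0.12 in WT cells. Gadd45a, a growth arrest gene, fell by 3.67 on the log2 scale in CKO cells and by 4.20 in WT cells.

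Between the genotypes, 3 of the 27 were lower and 2 higher in CKO stimulated cells (12.4% and 11.7% over all genes), 4 lower and 1 higher in CKO unstimulated cells (11.0% and 7.82%), and 3 lower and 2 higher in CKO Treg (1.81% and 2.56%). The medians were -0.01, 0.02 and -0.11. Bcat1 (-0.74 ± 0.22) and Xpot (-0.66 ± 0.12) were lower in CKO stimulated cells. Ddit4, an inhibitor of mTORC1 signalling, was lower in CKO unstimulated cells (-1.66 ± 0.31) and CKO Treg (-1.41 ± 0.31), and so was Slc1a5 (-0.97 ± 0.15 and -1.23 ± 0.15). In stimulated cells Ddit4 differed by 0.40 and Slc1a5 by -0.09, neither called, and the interaction with stimulation was called for both (2.06 and 0.88, adjusted p 0.0094 and 0.024, limma). Slc1a4, a neutral amino acid transporter that carries serine, was named after its values were seen. It stood at 1.12 to 1.63 on CKO Treg arrays while none of the WT Treg arrays measured it well above background, which makes it at least 52.4-fold higher in CKO Treg (limma, adjusted p = 1.0e-11), with measured means of 1.39 in CKO Treg and -5.54 in WT Treg. The bound sets the mean of the CKO Treg arrays against, on each WT Treg array, the higher of the lowest signal well above background and the gene's own signal. The second Slc1a4 probe stood at 0.84 to 1.46 on CKO Treg arrays. Between the genotypes Slc1a4 differed by 0.60 in stimulated and 0.70 in unstimulated naive cells, neither called. It rose with stimulation by 2.44 ± 0.33 in CKO cells and 2.54 ± 0.33 in WT cells. The treatment field of the CKO Treg samples says TCR-stimulated, and the part of this in the Treg difference was not tested.

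Of 17 measured genes of the folate one-carbon cycle, listed with 21, 11 rose and 2 fell with stimulation in each genotype, beside the shares over all genes given above. Shmt1, the cytosolic partner of Shmt2, rose by 5.29 ± 0.20 in CKO cells and 4.83 ± 0.20 in WT cells, and Slc19a1, the reduced folate carrier, by 3.48 ± 0.16 and 3.28 ± 0.16. In CKO stimulated cells 6 of the 17 were lower and 0 higher, beside 12.4% and 11.7% of all genes, with a median of -0.34: Tyms, which makes thymidylate, differed by -0.97 ± 0.19 and Dld, a subunit of the glycine cleavage system, by -0.61 ± 0.11. In CKO unstimulated cells 4 were lower and 1 higher (11.0% and 7.82% of all genes), led by Shmt1 (-1.03 ± 0.20) and Slc19a1 (-0.82 ± 0.16), and in CKO Treg 2 were lower, Shmt1 (-1.11 ± 0.20) and Slc19a1 (-0.64 ± 0.16), and 1 higher, Mthfs (0.78 ± 0.18), where 1.81% of all genes were lower and 2.56% higher.

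With stimulation, more genes of the stress arms around ATF4 rose than fell. Of all genes, 29.9% rose and 30.3% fell in CKO cells, and 31.7% rose and 30.2% fell in WT cells. The median change in CKO and WT cells was 0.73 and 0.85 for the ATF6 and XBP1 arms. It was 0.66 and 0.64 for the eIF2 alpha genes and 1.39 and 1.37 for the mitochondrial stress genes, beside -0.08 and -0.03 over all genes. Of 18 measured genes of the ATF6 and XBP1 arms of the unfolded protein response, 11 rose and 3 fell in CKO cells, and 12 rose and 3 fell in WT cells, where Dnajb9, a co-chaperone, fell by 2.53 and Pdia6, a disulfide isomerase, rose by 1.90 ± 0.12 on the log2 scale. Of 6 measured genes of the eIF2 alpha kinases and phosphatase subunits, 4 rose and 2 fell in CKO cells, and 3 rose and 2 fell in WT cells. Of 8 measured mitochondrial stress genes, 5 rose and 1 fell in CKO cells, and 7 rose and 1 fell in WT cells.

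Between the genotypes, of the same 18 genes of the ATF6 and XBP1 arms of the unfolded protein response, 5 were lower and 2 higher in CKO stimulated cells (12.4% and 11.7% of all genes). In CKO Treg 0 were called by limma (1.81% lower and 2.56% higher over all genes), with 1 at an unadjusted p under 0.05. In CKO unstimulated cells 1 was higher (Edem1, 0.27 ± 0.09) and 0 lower, beside 7.82% and 11.0% of all genes. Sdf2l1, an endoplasmic reticulum co-chaperone, differed in stimulated cells by -1.08 ± 0.23, and Ern1, the sensor IRE1, by 0.62 ± 0.18. Of the 6 measured genes of the eIF2 alpha kinases and phosphatase subunits, Eif2s1, which encodes eIF2 alpha itself, was lower in CKO stimulated cells (-0.80 ± 0.19) and CKO unstimulated cells (-0.89 ± 0.19). Eif2ak3, the kinase PERK of the endoplasmic reticulum, was higher in CKO stimulated cells (0.68 ± 0.17), and Eif2ak4, the kinase GCN2 that senses uncharged tRNA, was lower in CKO Treg (-0.85 ± 0.19) and, with overlapping groups, in CKO unstimulated cells (-0.60 ± 0.19). Of 8 measured mitochondrial stress genes, 3 were lower in CKO stimulated cells, the chaperonins Hspe1 (-0.83 ± 0.21) and Hspd1 (-0.72 ± 0.21) and the chaperone Trap1 (-0.46 ± 0.16), and Clpx, of the matrix protease ClpXP, was higher in CKO Treg (1.49 ± 0.15) and in CKO unstimulated cells (0.75 ± 0.15). The other calls in CKO unstimulated cells were Dnaja3, a mitochondrial co-chaperone (-0.57 ± 0.13), and Trap1 (-0.55 ± 0.16), both lower.

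Across the 24 arrays the 10 genes did not form 1 block. The 45 pairs had a median Pearson correlation of 0.745, from -0.41 to 0.97, and the highest values joined Phgdh with Psph, Psat1 with Shmt2 and Asns with Psat1 (all 0.97). Ddit3 correlated below 0 with each of the others but Trib3 (0.42). After the 6 group means were taken out, which removes differences of stimulation, genotype and cell type alike, the median was 0.18, from -0.54 to 0.83. Phgdh and Psph (0.81), Phgdh and Shmt2 (0.63) and Psat1 and Shmt2 (0.62) still varied together among arrays of 1 group, as did Atf4 and Ddit3 (0.83), whose values over the 24 arrays had a correlation of -0.07. Other pairs ran in opposite directions among arrays of 1 group: Mthfd2 with Ddit3 (-0.54) and Atf4 (-0.50), and Asns with Atf4 and Ddit3 (both -0.44). These are descriptions over 24 arrays that share groups and slides.

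Over all named genes, those whose profile over the 24 arrays was most like that of a member, by Pearson correlation, were Tmem97, Nefh and Gusb for Psat1 (0.991, 0.990 and 0.990), Hirip3, Srm and Iars for Shmt2 (all 0.992), and Tubb5, Ccnh and Nudt19 for Phgdh (0.983, 0.980 and 0.980). Nhp2l1, Mrps33 and Rbx1 were most like Psph (0.986, 0.985 and 0.984), Tdrkh, Ppil1 and Pa2g4 most like Asns (0.979, 0.978 and 0.977), Sephs2, Ipo13 and Pja2 most like Mthfd2 (0.967, 0.963 and 0.960) and Dtymk, Rnmtl1 and Bnip1 most like Atf4 (0.963, 0.952 and 0.949). The likeness was lower for Chac1 (Cnot1, 0.880, Adk, 0.853, and Lactb, 0.849), Ddit3 (Ccm2, 0.84, and Hsdl1, 0.83) and Trib3 (Angptl6, 0.782, Gcdh, 0.772, and Rab3gap1, 0.737).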

How the data were processed

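Gene expression was measured on 24 single-colour Agilent arrays (Cy3) in 6 groups of 4. Per the file headers, the authors scanned the arrays with Agilent Feature Extraction 9.5.3.1, whose processed signal, an intensity that is already background-subtracted, was used here; the submitters' processing notes name version 9.5. The authors also deposited a table of normalized values of the same arrays (a linear intensity, whose column medians are all 13.5, with the method not given in the sources used here), which was used as an alternative after log2. Each of its columns ranked closest to its own array.

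Spots marked as outliers were left out, spots of 1 probe were averaged, and log2 signals were set relative to each array's 75th percentile. A probe was kept where at least 3 of 4 arrays of 1 group were well above background (25198 of 41174 probes), and a gene was read by its brightest kept probe. R 4.3.3 and limma 3.58.1 fitted 6 group means over all 24 arrays with 9 contrasts; tests were 2-sided with Benjamini-Hochberg adjustment. The fit was tested on simulated arrays with independent noise, which lack the shared slides of the real arrays and so do not test for them. The number of arrays limits the precision, as does signal over background. Arrays lay on 6 slides of 4 arrays. The labels state no pairing of samples, and the main fit held no block for the replicate number. Same-numbered arrays were checked for a correlation of deviations over 0.1 in every pair. Of the comparisons of 2 groups, CKO Treg against CKO unstimulated cells met this (0.37 to 0.49). There, pairs 2 and 4 also shared a slide. Pair 1 joined mice of 7 weeks (Treg) and 6 weeks (unstimulated), so the number does not show that samples were paired. In the other comparisons at least 1 pair was below 0.1, at the lowest between -0.31 and 0.09. Besides the 10 members, named genes were up to 4 called genes per list and comparison, well above background on 3 arrays of both groups and without overlap, by size of change, and the 3 genes most like each member. Some genes that this rule names are not reported here. The members and the lists were chosen with earlier results of these data known. Alternatives were 14 other settings and 24 fits without 1 array each.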

Additional observations from a re-analysis of the deposited data

Results flagged for a closer look

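In 6 of the 60 sets of 4 arrays (10 genes in 6 groups), 1 array stood apart from the other 3 by Dixon's criterion, which marks about 1 set in 20 by chance. Chac1 was at -6.43 on the fourth CKO unstimulated array, not well above background there, against -4.27 on the nearest array. Mthfd2 was at 2.64 on the fourth CKO stimulated array (nearest 2.09) and at 2.18 on the fourth WT unstimulated array (nearest 1.42). Phgdh was at 6.28 on the fourth WT stimulated array (nearest 6.55). Psat1 was at 0.28 on the first CKO Treg array (nearest 0.07). Trib3 was at -0.13 on the second WT unstimulated array (nearest 0.45).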

How the results depend on the processing

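The number of the 10 genes called is given for each setting where it moved by more than 1.5 times. CKO against WT unstimulated cells (1 called) gave 0 with normexp, 5 with array weights and 1 to 2 when 1 array was left out. CKO against WT stimulated cells (5) gave 2 with quantile normalization, 2 with the authors' values and 2 to 6 without 1 array. CKO against WT Treg (2) gave 0 with normexp, 1 with no filter, 0 with only the compared arrays, 1 with array weights and 1 to 2 without 1 array. The interaction of genotype and stimulation (0) gave 4 with array weights and 0 to 1 without 1 array. Treg against naive cells gave 1 to 5 in CKO cells (4) and 3 to 6 in WT cells (6) without 1 array. Over single genes, 1217 of 1290 alternatives to a called value kept the call, 73 lost it and 0 reversed. Many of the 24 fits without 1 array left out an array of a group not compared, where the difference itself could not change. The share that kept the call was therefore partly fixed in advance. Of 2121 alternatives to a value not called, 44 were called in the same direction and 2 in the other: Chac1 in Treg against naive cells under normexp, at 0.88 in CKO cells (limma, adjusted p = 0.044) and 0.91 in WT cells (0.029), where the median of all genes moved to 0.16 and 0.18. The cause was not tested. The replicate number as a block gave 6 calls between the genotypes in stimulated cells and 10 for stimulation in WT cells, and changed no other count. Over all genes, stimulated CKO against WT cells (1954 higher, 2057 lower) gave 411 and 1002 with normexp and 1188 and 2150 with a signal floor. CKO against WT Treg (426 higher, 302 lower) gave 71 and 10 with normexp and 265 and 108 with only the compared arrays. Treg against naive cells with normexp gave 5102 higher and 3929 lower in CKO cells (1957 and 2722) and 6412 and 5263 in WT cells (3157 and 4924). Chac1 has no value where only probes well above background on all 24 arrays are kept. Low signal limits Chac1 and the Treg arrays.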
